A study of Rattus norvegicus with 20 samples.

Results

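The genes described here carry out cell division: cyclins and their kinase partner, the kinases of mitosis, the proteins of centromere and kinetochore, the kinesin motors and topoisomerase 2 alpha. They were taken by name, as every gene whose symbol begins with Kif and a number, Cenp, Bub, Aurk, Plk and a number, Ccna, Ccnb or Nek and a number, together with Ndc80, Nuf2, Top2a, Mki67, Cdk1 and Cdc20, wherever a probe set of the array has exactly 1 symbol. This gave 70 genes of 14506 symbols, on 72 probe sets of 29215, since Ccnb2 and Nek2 have more than 1 and the probe set with the higher mean was kept. The names bring together genes of unlike function, so the 70 were divided by role into 37 in mitotic roles and 33 others, which are mainly kinesins of transport and cilia and NIMA-related kinases. Mki67, Cenpe and Cenpf were not analysed here.

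The levels were measured in epithelial cells of 5 tissues of adult Sprague-Dawley rats, postnatal day 200, that carry enhanced green fluorescent protein (EGFP) under the CAG promoter: oral mucosa, vagina, esophagus, footpad and trachea. The cells were grown on irradiated 3T3-J2 mouse fibroblasts, and each tissue was cultured before a first transplantation and again after the cells had been put into newborn mouse skin that was grafted to nude mice, and recovered. All 10 groups therefore hold cultured cells sorted for EGFP, none holds tissue, and each consists of 2 arrays from duplicate cultures. The sample titles carry Roman numerals that the labels do not explain and that are the same before and after only for vagina, so in the other 4 tissues whatever they mark cannot be told apart from the stage. Titles after transplantation also carry an unexplained code, RC5 in oral mucosa and vagina and RC4 in esophagus, footpad and trachea. Both arrays of a group share it, so whatever it marks cannot be told apart from differences between tissues with unlike codes. The EGFP gate removes cells of the mouse host and feeder layer, though other rat cells can pass it, and fewer dividing cells cannot be told apart from less RNA of these genes per cell. Every value below is a log2 value after robust multi-array averaging (RMA), so a difference of 1.00 is 2-fold, and rose and fell are used where limma gave a Benjamini-Hochberg adjusted p below 0.05 over all probe sets together with a change of more than 2-fold. The ± after a change is the standard error of the limma fit, with n = 2 arrays per group. The labels do not say how far the duplicates are independent, so all p-values measure the spread between duplicate cultures.

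Most genes of mitosis are transcribed late in the cell cycle. Before that their promoters are held off by the DREAM complex, which in mammalian cells forms in response to p21, the product of the p53 target Cdkn1a, and they are turned on in G2 and M by B-Myb and FoxM1. A short element close to the start, the cell cycle genes homology region (CHR), and CCAAT boxes upstream of it are what these promoters are known for. Their products then act in sequence: cyclin A2 and the B cyclins with Cdk1 bring the cell into mitosis, Plk1 and the aurora kinases build and correct the spindle, Bub1, Bub1b and Bub3 hold the cell until every kinetochore is attached through Ndc80 and Nuf2, and Cdc20 opens the way to anaphase. Cultured keratinocytes that leave the basal layer to differentiate stop dividing, and these genes are commonly read as a measure of how many cells in a culture divide.

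Promoters of 61 of the 70 genes were found by symbol among those of RefSeq on the GRCr8 assembly. The 5 genes that rose most in oral mucosa cells are shown first, followed by Ccnb1, which holds both elements in the usual order, and by Nek6, a member outside the mitotic roles that fell in footpad cells. Each stretch holds 100 bases before the start and 50 after it, 5′ to 3′ on the gene's strand, and capitals mark CHR letters (TTTGAA or TTTAAA) and CCAAT, on either strand.
Top2a (chr10:84473044-84473193, minus strand): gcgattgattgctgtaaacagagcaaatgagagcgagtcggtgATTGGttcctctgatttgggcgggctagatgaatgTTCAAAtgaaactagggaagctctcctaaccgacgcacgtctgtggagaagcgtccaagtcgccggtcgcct
Kif2c (chr5:135899163-135899312, minus strand): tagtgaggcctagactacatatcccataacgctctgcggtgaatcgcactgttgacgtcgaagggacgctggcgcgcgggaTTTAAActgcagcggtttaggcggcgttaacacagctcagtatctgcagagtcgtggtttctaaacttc
Kif20a (chr18:26504322-26504471, plus strand): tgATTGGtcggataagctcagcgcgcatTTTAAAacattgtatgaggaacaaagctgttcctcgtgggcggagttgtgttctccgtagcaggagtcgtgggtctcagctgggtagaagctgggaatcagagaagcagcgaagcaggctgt
Bub1b (chr3:126016967-126017116, plus strand): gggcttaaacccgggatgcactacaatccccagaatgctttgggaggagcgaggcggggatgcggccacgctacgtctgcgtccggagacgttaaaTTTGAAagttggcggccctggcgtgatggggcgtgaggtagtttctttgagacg
Plk4 (chr2:125730380-125730529, plus strand): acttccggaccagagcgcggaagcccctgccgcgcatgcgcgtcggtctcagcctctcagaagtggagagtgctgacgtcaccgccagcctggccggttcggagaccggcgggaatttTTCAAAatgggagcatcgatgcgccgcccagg
Ccnb1 (chr2:33655176-33655325, minus strand): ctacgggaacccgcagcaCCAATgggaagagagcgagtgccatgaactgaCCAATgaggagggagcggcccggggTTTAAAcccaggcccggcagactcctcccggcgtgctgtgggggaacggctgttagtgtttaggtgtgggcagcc
Nek6 (chr3:42693894-42694043, plus strand): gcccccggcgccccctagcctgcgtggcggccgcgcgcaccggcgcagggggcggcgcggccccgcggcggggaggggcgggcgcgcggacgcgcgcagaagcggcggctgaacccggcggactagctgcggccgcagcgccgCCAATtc
In Top2a, Kif2c, Bub1b, Plk4 and Ccnb1 the CHR letters lay within 50 bases of the start, their first base at -22, -19, -4, 19 and -25 counted from the start, whereas in Kif20a they lay further upstream, at -72. The Nek6 window held no such letters and 1 CCAAT after the start. Over all promoters matched, CHR letters within 50 bases on each side of the start were found in 21 of 34 genes in mitotic roles (61.8%), in 4 of 27 other members (14.8%) and in 7.68% of 21851 protein-coding genes. The motif was searched on both strands and TTTAAA is its own reverse complement. Over the whole 300 bases, from 250 before the start to 50 after it, the shares were 76.5%, 18.5% and 26.4%. CCAAT boxes in the same 300 bases were found in 55.9% of the mitotic genes, 33.3% of the other members and 38% of all genes, a smaller contrast. These are counts of letters and say nothing of binding.

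After transplantation, 29 of the 37 members counted in mitotic roles rose in oral mucosa cells. None of the 37 passed the test with a 2-fold change in the other 4 tissues. Nek6, a spindle kinase counted outside them, fell in footpad. In oral mucosa 29 of the 70 members rose and none fell, and all 29 were among the 37 in mitotic roles, where the median change was 1.42. Of all 14506 symbols 1.91% rose and 3.07% fell in this tissue. The members that rose were all 5 cyclins and partners, Top2a, 6 of 7 mitotic kinases, 2 of 3 checkpoint and attachment genes, 7 of 12 centromere genes and 8 of 9 mitotic kinesins. The other 8 mitotic genes (Aurkb, Bub3, Cenpc, Cenpj, Cenpl, Cenpm, Cenpq and Kif23) lay between 0.46 and 0.80, with adjusted p below 0.05 but less than 2-fold. By the adjusted p alone all 37 mitotic genes were thus higher, and of the other 33 members 6 were higher and 7 lower, where 9.35% and 11% of all probe sets were.

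Elsewhere single members passed. In vagina Ccnb1ip1 rose and Kif13b fell, against 0.62% and 2.41% of all symbols. In footpad Kif3a rose and Nek6 fell, against 5.25% and 4.02%. In esophagus, where 0.572% of symbols rose and 0.765% fell, and in trachea, with 0.627% and 0.972%, no member passed by limma under the 2-fold limit. The median change of the 37 mitotic genes was 0.45 in vagina, 0.44 in esophagus, -0.15 in footpad and -0.55 in trachea, while that of all symbols lay between -0.06 and 0.05 in the 5 tissues.

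**Figure D1:**
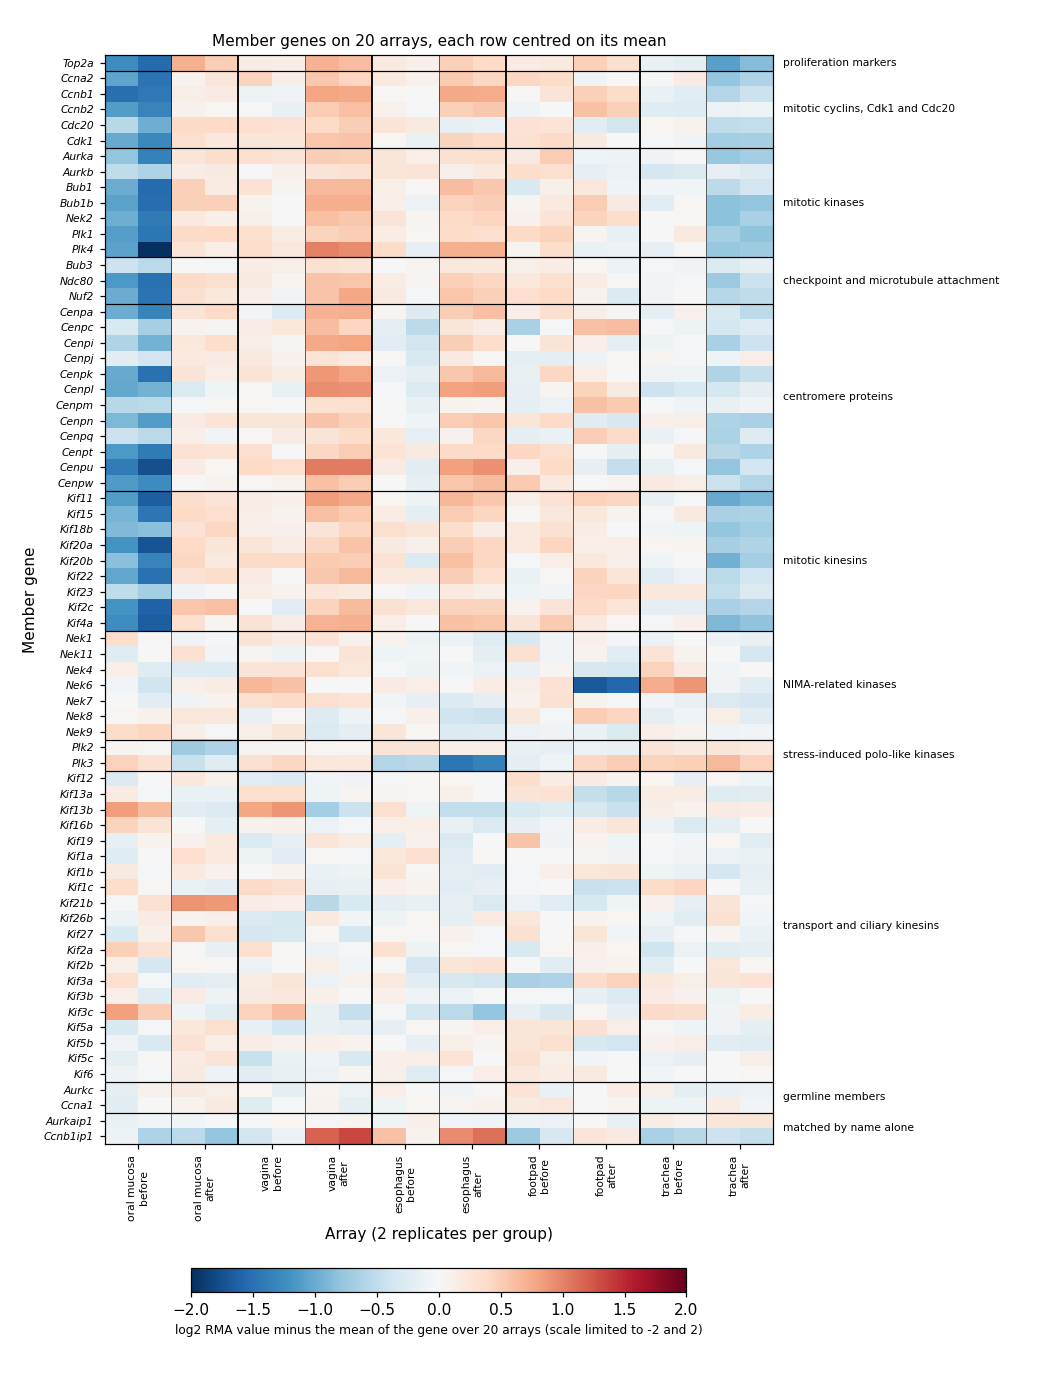
Log2 RMA values of the 70 members on the 20 arrays, each row minus its own mean, with genes in rows grouped by role and arrays in columns by tissue and stage. The 37 mitotic genes at the top are lowest in oral mucosa before transplantation, and the 33 members below them share no such column.

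**Figure D2:**
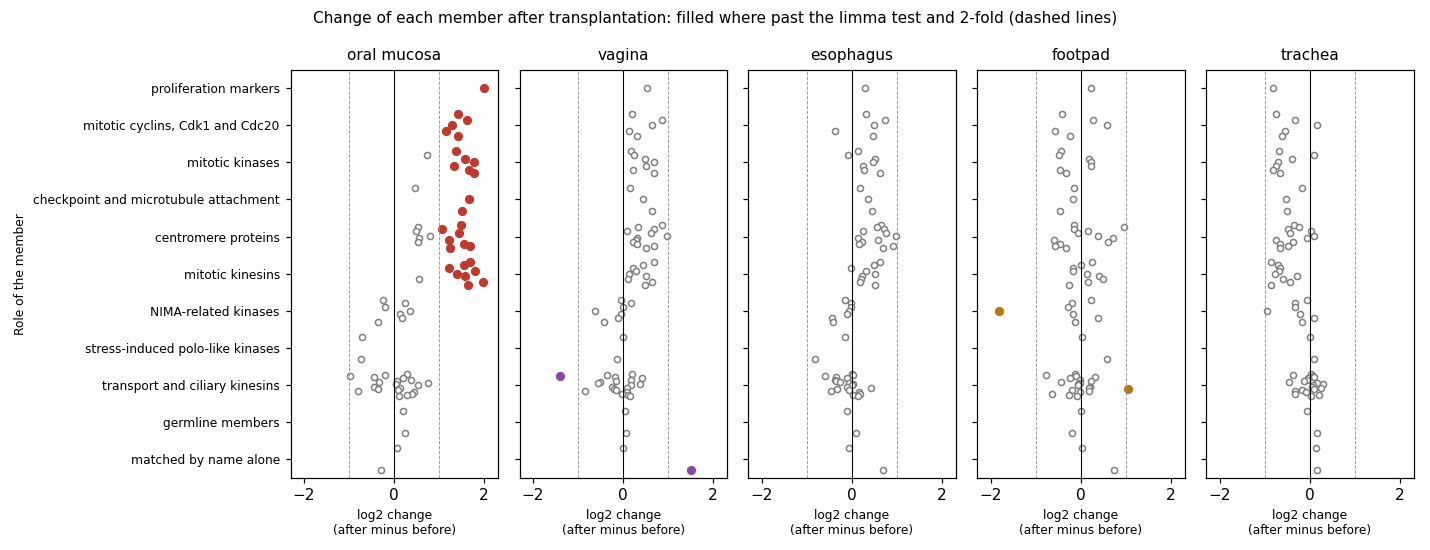
Change of each member (log2, after minus before transplantation) by role in the 5 tissues; filled points passed the limma test and the 2-fold limit, drawn as dashed lines. In oral mucosa 29 members in mitotic roles are filled, in vagina and footpad 2 members each, and in esophagus and trachea none.

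Top2a, the topoisomerase that untangles sister chromatids, changed most. It stood at 8.55 and 8.27 before and 10.52 and 10.30 after in oral mucosa, a rise of 2.0 ± 0.11 (limma adjusted p = 2.60e-08), or 4.0-fold. In the other tissues it read 9.95 and 9.93 against 10.50 and 10.43 in vagina, 9.98 and 9.90 against 10.28 and 10.20 in esophagus, 9.97 and 10.00 against 10.28 and 10.13 in footpad and 9.67 and 9.61 against 8.72 and 8.94 in trachea. The oral mucosa arrays before transplantation are thus the lowest of the 20 and the trachea arrays after it the next, the 12 arrays of the other 3 tissues all lying at 9.90 or above.

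Cyclin A2 (Ccna2), which drives S phase and entry into mitosis, rose in oral mucosa from 7.97 and 7.54 to 9.09 and 9.27 (1.42 ± 0.14, adjusted p = 4.19e-06). Its arrays elsewhere read 9.47 and 9.14 against 9.56 and 9.45 in vagina, 9.22 and 9.11 against 9.54 and 9.43 in esophagus, 9.43 and 9.39 against 8.95 and 9.03 in footpad and 8.98 and 9.18 against 8.25 and 8.40 in trachea. Both trachea arrays after transplantation lay below both before, and in footpad too, by less than 2-fold.

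The B cyclins are the partners of Cdk1 at mitosis. Ccnb1 stood at 8.81 and 8.88 before and 10.44 and 10.47 after in oral mucosa, a rise of 1.61 ± 0.09 with an adjusted p of 2.34e-08. Its values were 10.20 and 10.24 against 11.10 and 11.07 in vagina, 10.34 and 10.33 against 11.07 and 11.06 in esophagus, 10.34 and 10.57 against 10.79 and 10.68 in footpad and 10.17 and 10.10 against 9.73 and 9.88 in trachea. The after arrays of vagina and esophagus were the 4 highest of all 20, and those of trachea were the only after arrays to lie below their own before arrays.
Ccnb2 rose by 1.29 ± 0.09 in oral mucosa, from 8.59 and 8.38 to 9.80 and 9.76. It read 9.69 and 9.57 against 10.22 and 10.31 in vagina, 9.80 and 9.68 against 10.19 and 10.25 in esophagus, 9.64 and 9.71 against 10.31 and 10.19 in footpad and 9.48 and 9.45 against 9.59 and 9.63 in trachea, so that footpad lay higher after transplantation by 0.57, and trachea differed by only 0.15.

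Cdk1, the kinase that these cyclins activate, rose in oral mucosa by 1.41 ± 0.10 (adjusted p = 1.74e-07), its arrays reading 7.53 and 7.25 before and 8.85 and 8.74 after. The remaining arrays were 8.77 and 8.78 against 9.08 and 9.10 in vagina, 8.58 and 8.40 against 8.98 and 8.94 in esophagus, 8.84 and 8.92 against 8.71 and 8.55 in footpad and 8.49 and 8.47 against 7.85 and 7.88 in trachea. Cdc20, which directs the anaphase-promoting complex to its targets, had the smallest rise of these 5, 1.15 ± 0.11, from 9.80 and 9.38 to 10.74 and 10.74. It differed from the cyclins in esophagus, where both after arrays were lower, as they were in footpad and trachea: it read 10.69 and 10.63 against 10.74 and 10.84 in vagina, 10.62 and 10.54 against 10.19 and 10.23 in esophagus, 10.65 and 10.62 against 10.13 and 9.98 in footpad and 10.38 and 10.42 against 9.84 and 9.85 in trachea.

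**Figure D3:**
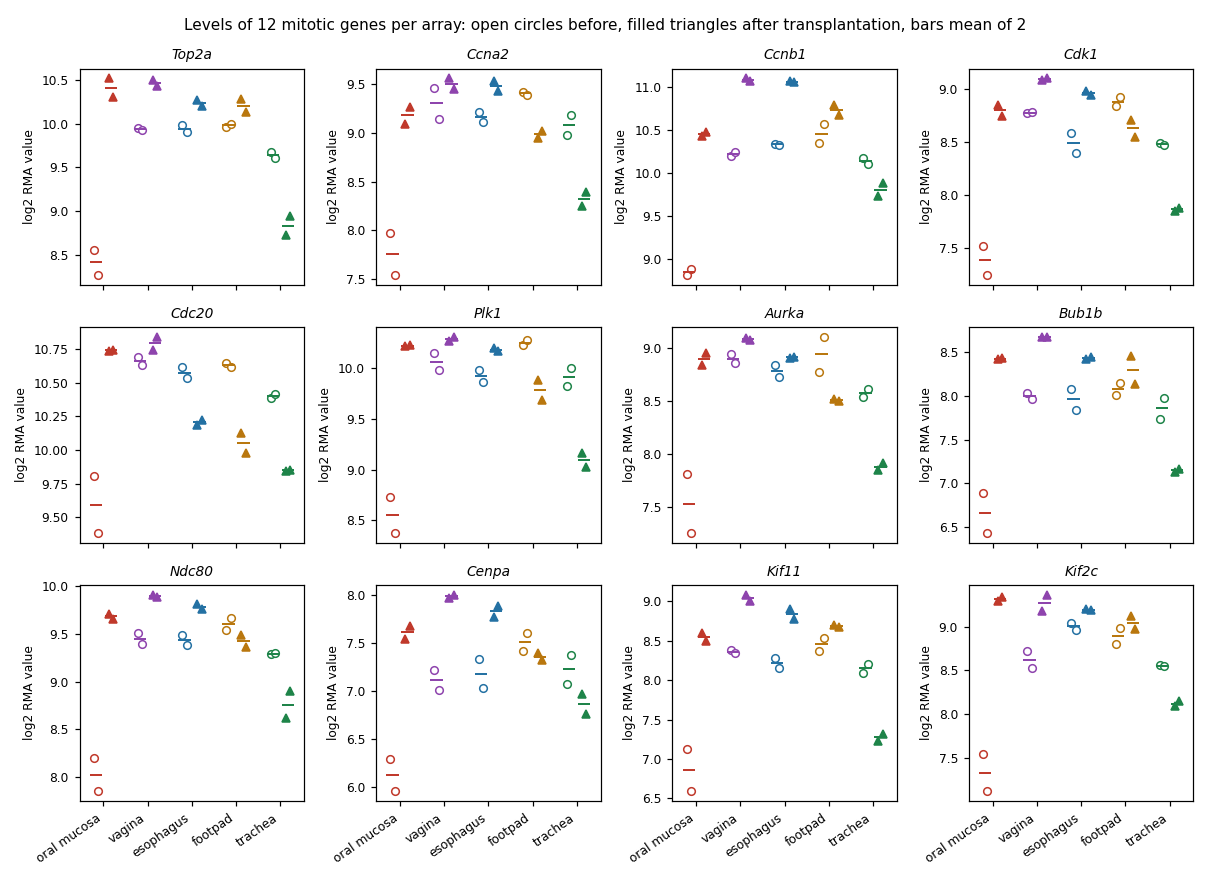
Log2 RMA value of 12 mitotic genes on each array by tissue; open circles are before and filled triangles after transplantation, and bars are the mean of 2 arrays. In each panel both oral mucosa arrays before transplantation lie below every array of the other tissues, and both after lie within the range of those tissues, except 1 Top2a array at 10.52 just above it.

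Among the mitotic kinases, Bub1b and Plk4 rose most. Bub1b, the checkpoint protein BubR1, stood at 6.89 and 6.43 before and 8.42 and 8.43 after in oral mucosa, a rise of 1.77 ± 0.14 (adjusted p = 6.85e-07). It read 8.03 and 7.96 against 8.68 and 8.68 in vagina, 8.08 and 7.84 against 8.42 and 8.45 in esophagus, 8.01 and 8.15 against 8.46 and 8.14 in footpad and 7.73 and 7.98 against 7.13 and 7.17 in trachea, with no overlap of stages in vagina, esophagus and trachea. Plk4, which starts the copying of centrioles, had a wider spread, 6.61 and 5.64 before and 7.96 and 7.82 after, and a rise of 1.76 ± 0.24 with an adjusted p of 8.12e-05. Its other arrays were 8.04 and 7.91 against 8.69 and 8.63 in vagina, 8.05 and 7.52 against 8.40 and 8.40 in esophagus, 7.74 and 8.04 against 7.55 and 7.58 in footpad and 7.52 and 7.71 against 6.92 and 6.97 in trachea.

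Plk1, needed for spindle assembly and cytokinesis, rose by 1.67 ± 0.12 in oral mucosa (8.73 and 8.38 before and 10.22 and 10.23 after; adjusted p = 1.80e-07). In the other tissues its arrays read 10.15 and 9.98 against 10.27 and 10.31 in vagina, 9.98 and 9.87 against 10.20 and 10.17 in esophagus, 10.23 and 10.28 against 9.89 and 9.68 in footpad and 9.82 and 10.00 against 9.17 and 9.03 in trachea. The arrays after transplantation lay below those before it in footpad (-0.47) and trachea (-0.81), and the stages did not overlap.
Aurora A (Aurka), the kinase of centrosomes and spindle poles, rose by 1.37 ± 0.15, from 7.81 and 7.25 to 8.84 and 8.96. Its arrays elsewhere were 8.95 and 8.86 against 9.09 and 9.08 in vagina, 8.84 and 8.73 against 8.91 and 8.92 in esophagus, 8.78 and 9.11 against 8.52 and 8.50 in footpad and 8.54 and 8.62 against 7.85 and 7.92 in trachea. Aurora B (Aurkb), the kinase of the chromosomal passenger complex, lay at 8.67 and 8.57 before and 9.33 and 9.36 after and its change of 0.73 ± 0.08 was below the 2-fold limit. It read 9.17 and 9.29 against 9.45 and 9.49 in vagina, 9.42 and 9.45 against 9.29 and 9.38 in esophagus, 9.54 and 9.51 against 9.02 and 9.07 in footpad and 8.85 and 8.90 against 9.02 and 8.92 in trachea; in trachea, unlike the other mitotic kinases, its mean was not lower after transplantation.

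Bub1, the checkpoint kinase at the kinetochore, stood at 8.14 and 7.60 before and 9.61 and 9.31 after and rose by 1.59 ± 0.18 (adjusted p = 1.39e-05). Elsewhere it read 9.42 and 9.19 against 9.79 and 9.79 in vagina, 9.26 and 9.15 against 9.75 and 9.67 in esophagus, 8.83 and 9.23 against 9.37 and 9.06 in footpad and 9.09 and 9.09 against 8.61 and 8.75 in trachea. Nek2, the NIMA-related kinase that separates centrosomes and is counted here with the mitotic kinases, rose by 1.34 ± 0.13 in oral mucosa and lay lower after transplantation in trachea (-0.75 ± 0.13).

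The attachment proteins moved with the kinases. Ndc80, which binds microtubules at the kinetochore, rose in oral mucosa by 1.66 ± 0.12 (8.20 and 7.85 before and 9.71 and 9.65 after; adjusted p = 1.74e-07). Its other arrays were 9.51 and 9.39 against 9.91 and 9.89 in vagina, 9.49 and 9.39 against 9.82 and 9.76 in esophagus, 9.55 and 9.66 against 9.49 and 9.36 in footpad and 9.29 and 9.30 against 8.62 and 8.90 in trachea. Nuf2, its partner in the same complex, rose by 1.5 ± 0.15, from 7.88 and 7.40 to 9.20 and 9.09. It read 8.99 and 8.82 against 9.46 and 9.65 in vagina, 9.06 and 8.84 against 9.43 and 9.35 in esophagus, 9.21 and 9.27 against 8.95 and 8.61 in footpad and 8.83 and 8.88 against 8.30 and 8.38 in trachea. The changes of both genes thus had the same sign in each of the 5 tissues. Bub3, which carries Bub1 and Bub1b to kinetochores, differed by 0.46 ± 0.08 in oral mucosa, the smallest of the 37 mitotic changes there.

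The 12 centromere genes were less alike. Those that rose in oral mucosa were Cenpu (1.68), Cenpt (1.56), Cenpa (1.49), Cenpk (1.45), Cenpw (1.24), Cenpn (1.22) and Cenpi (1.05), all found at the inner kinetochore, and Cenpl at 0.80, Cenpc and Cenpm at 0.54, Cenpq at 0.52 and Cenpj at 0.48 stayed under 2-fold. Cenpa, the histone H3 variant that marks centromeres, stood at 6.29 and 5.96 before and 7.54 and 7.68 after in oral mucosa (adjusted p = 3.53e-06). It read 7.22 and 7.01 against 7.97 and 8.01 in vagina, 7.33 and 7.03 against 7.77 and 7.89 in esophagus, 7.41 and 7.60 against 7.39 and 7.33 in footpad and 7.08 and 7.37 against 6.97 and 6.76 in trachea. In footpad Cenpc, Cenpm, Cenpq and Cenpl changed by 0.95, 0.71, 0.60 and 0.37 while Cenpn, Cenpu and Cenpt changed by -0.60, -0.57 and -0.46, all with adjusted p below 0.05. Cenpq was the only mitotic gene whose mean, 4.71, lay below 4.77, the level under which 40% of all probe sets fall. Cenpj, counted here by its name, is a centriole protein.

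Among the 9 mitotic kinesins, Kif2c and Kif20a rose most. Kif2c, which takes apart wrongly attached microtubules, stood at 7.54 and 7.12 before and 9.30 and 9.34 after in oral mucosa, a rise of 1.98 ± 0.12 (adjusted p = 6.60e-08) or 3.95-fold. It read 8.72 and 8.53 against 9.18 and 9.36 in vagina, 9.04 and 8.96 against 9.20 and 9.19 in esophagus, 8.81 and 8.99 against 9.12 and 8.97 in footpad and 8.56 and 8.55 against 8.09 and 8.15 in trachea. Kif20a, a motor of the central spindle and cytokinesis, rose by 1.79 ± 0.14 with arrays at 7.69 and 7.17 before and 9.29 and 9.13 after. In the other tissues the arrays of Kif20a were 9.14 and 9.04 against 9.30 and 9.46 in vagina, 9.07 and 8.99 against 9.38 and 9.31 in esophagus, 9.09 and 9.32 against 9.02 and 9.02 in footpad and 8.92 and 8.94 against 8.23 and 8.29 in trachea.
Kif11, the motor that pushes spindle poles apart, rose by 1.69 ± 0.14 in oral mucosa, from 7.13 and 6.59 to 8.60 and 8.50. Its arrays read 8.38 and 8.34 against 9.08 and 9.0 in vagina, 8.27 and 8.15 against 8.90 and 8.78 in esophagus, 8.37 and 8.54 against 8.70 and 8.68 in footpad and 8.09 and 8.20 against 7.23 and 7.32 in trachea, and the trachea arrays after transplantation lay just above those of oral mucosa before it.
Kif23, which forms the centralspindlin complex of the midzone, was the exception with a change of 0.56 ± 0.09. It stood at 8.95 and 8.77 before and 9.39 and 9.45 after in oral mucosa and at 9.58 and 9.53 against 9.69 and 9.64 in vagina, 9.47 and 9.37 against 9.65 and 9.57 in esophagus, 9.37 and 9.40 against 9.87 and 9.88 in footpad and 9.66 and 9.67 against 8.96 and 9.16 in trachea. Its highest arrays were those of footpad after transplantation, a place that vagina after transplantation held for most mitotic genes. Kif4a (1.64), Kif22 (1.58), Kif15 (1.56), Kif20b (1.39) and Kif18b (1.22) also rose in oral mucosa.

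The oral mucosa change began from a low level. In all 37 mitotic genes the mean of oral mucosa before transplantation was the lowest of the 10 groups. The highest was vagina after transplantation in 28 genes, footpad after in 4, oral mucosa after and esophagus after in 2 each and footpad before in 1. Before transplantation 27 members lay more than 2-fold below the mean of the other 4 tissues in oral mucosa and none above it, against 1.87% of symbols lower and 2.27% higher, and all 27 were mitotic. Cenpu (-1.70 ± 0.13), Plk4 (-1.69 ± 0.19) and Kif20a (-1.64 ± 0.11) lay furthest below. The F test for differences among the 5 tissues passed in 31 members before and 32 after transplantation, against 12.2% and 15.6% of all symbols, and 28 of the 37 mitotic genes were among them at each stage.

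Averaged over the 37 mitotic genes, the arrays read 7.38 and 7.05 in oral mucosa before transplantation, and the other 18 arrays lay between 7.71 and 8.87. The second oral mucosa array before transplantation was lower than the first in 33 of the 37 genes, with a median difference of -0.35, whereas that of all probe sets was -0.03. Without this array 27 members rose in oral mucosa in place of 29, Cdc20 (0.94) and Cenpi (0.88) being lost, and the median mitotic change was 1.24. The mitotic genes shifted together between duplicates in other groups too, by less. The second array was lower in 34 genes in esophagus before (median difference -0.11) and in 30 in footpad after (-0.11). It was lower in only 6 in footpad before (0.14) and in trachea after (0.09).

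Whether the tissues differed in their response was tested as such. The change of oral mucosa exceeded the mean change of the other 4 tissues by more than 2-fold in 28 members and fell short of it in 1, against 2.63% and 3.58% of symbols. Of these 28, 27 were mitotic, led by Top2a (1.94 ± 0.12), Plk1 (1.87 ± 0.13) and Kif20a (1.85 ± 0.15), and the other was Nek6. The member that fell short was Ccnb1ip1. Trachea stood at the other end, with 25 members below the mean change of the other 4 tissues and none above, all 25 mitotic, against 1.52% of symbols lower. In footpad Kif3a (1.26) exceeded that mean and Nek6 (-1.5) and Cenpu (-1.27) fell short, against 6.77% and 4.21% of symbols, in vagina Ccnb1ip1 (1.18) exceeded it, against 0.427%, and in esophagus no member passed by limma, against 1.07% and 0.91%. Since the mean of the other 4 includes oral mucosa for trachea and trachea for oral mucosa, these contrasts share arrays. The trachea count thus also holds the rise of oral mucosa, and no member fell in trachea itself. The F test over the 5 responses passed in 40 of 70 members (24% of all symbols), of which 32 were mitotic.

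In trachea the mitotic members lay lower after transplantation, each by less than 2-fold. Of the 37, 23 were lower by the adjusted p alone and none higher, against 8.84% and 6.25% of all probe sets. They include 8 of 9 mitotic kinesins, 4 of 5 cyclins and partners, 4 of 7 mitotic kinases and 4 of 12 centromere genes. Kif4a (-0.88 ± 0.14, adjusted p = 6.43e-04), Kif11 (-0.87 ± 0.14), Top2a (-0.81 ± 0.11) and Plk1 (-0.81 ± 0.12) changed most. Both after arrays lay below both before arrays in 32 of the 37 genes and above them in 2, against 28.2% and 29.4% of all probe sets. After transplantation 13 members lay more than 2-fold below the other 4 tissues in trachea, against 1.1% of symbols, with Kif11 (-1.5 ± 0.11) and Top2a (-1.5 ± 0.09) lowest.

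In vagina and esophagus the mitotic genes lay higher after transplantation, again by less than 2-fold. By the adjusted p alone 22 of 37 were higher in vagina and none lower, against 9.17% and 10.7% of all probe sets, and 15 were higher and 1 lower in esophagus, against 6.7% and 6.57%. Cenpl changed most in both tissues, by 0.98 ± 0.12 and 0.98 ± 0.12, followed in vagina by Cenpa (0.88 ± 0.14) and Ccnb1 (0.86 ± 0.09) and in esophagus by Cenpu (0.90 ± 0.17). The 1 lower in esophagus was Cdc20 (-0.37 ± 0.11). Both after arrays lay above both before arrays in 35 of 37 genes in vagina and 33 in esophagus, against 36.6% and 24.5% of all probe sets, and in esophagus both lay below in 2, Cdc20 and Aurkb.

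Footpad had no common direction. By the adjusted p alone 8 mitotic genes were higher and 10 lower, where 16.6% and 14.9% of all probe sets were. Cenpc, Cenpm, Cenpq, Ccnb2 (0.57) and Kif23 (0.49) lay higher, and Cenpn, Cdc20 (-0.58), Cenpu, Aurkb (-0.48), Plk1 and Ccna2 (-0.42) lay lower. The response of oral mucosa exceeded that of footpad by more than 2-fold in 31 members and fell short in 3, against 7.16% and 10.1% of symbols. Kif3a, Plk3 and Ccnb1ip1 were the 3 that fell short, none of them mitotic. This pair of tissues was chosen because cell cycle genes were already known to go in opposite directions there, so the contrast adds no independent support.

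**Figure D4:**
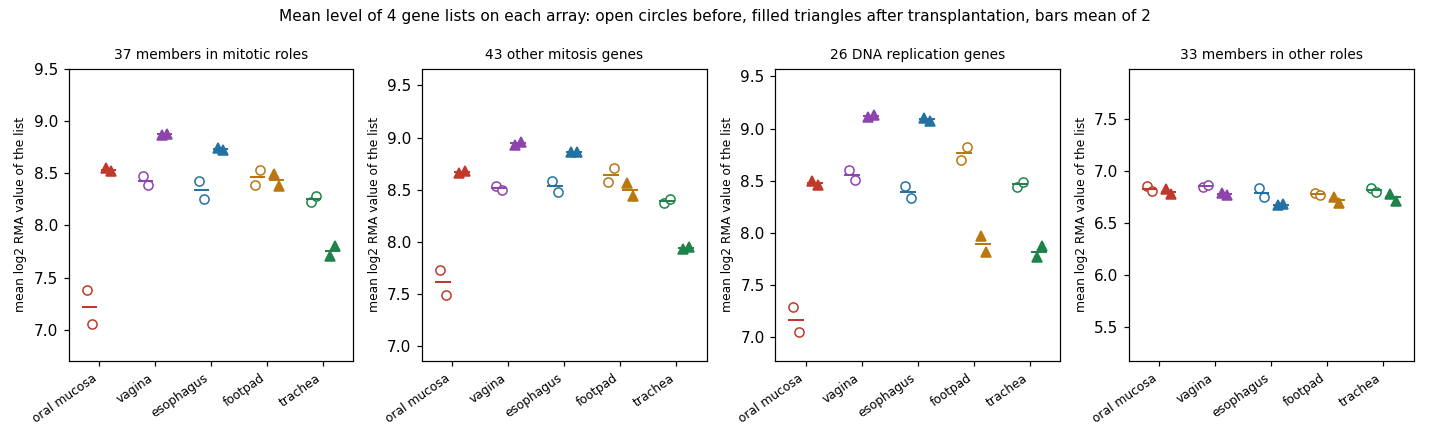
Mean log2 RMA value of 4 gene lists on each array by tissue; open circles are before and filled triangles after transplantation, and bars are the mean of 2 arrays. The mitotic members, the other mitosis genes and the replication genes are lowest in oral mucosa before transplantation, the 33 members in other roles stay between 6.67 and 6.86, and in footpad the replication genes lie lower after transplantation while the mitotic members differ little.

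The 33 members outside the mitotic roles did not follow. None rose or fell in oral mucosa, their median changes lay between -0.08 and 0.09 in the 5 tissues, and 8 of them, among which are the germline genes Aurkc and Ccna1, had means below 4.77. Of the 20 kinesins of transport and cilia, among which Kif2a and Kif2b are also known to act at spindles, 1 fell in vagina and 1 rose in footpad. Kif13b, a motor of membrane traffic, stood at 7.48 and 7.57 before and 6.0 and 6.26 after in vagina, so that it fell by 1.40 ± 0.12 (adjusted p = 2.75e-06). In oral mucosa it read 7.53 and 7.32 before and 6.46 and 6.41 after, a change of -0.99 ± 0.12 that just missed the 2-fold limit. The other arrays were 7.0 and 6.60 against 6.20 and 6.21 in esophagus, 6.38 and 6.44 against 6.37 and 6.24 in footpad and 6.80 and 6.75 against 6.85 and 6.84 in trachea. The groups with the highest means before transplantation were vagina and oral mucosa, and vagina after transplantation, at 6.13, had the lowest mean of the 10 groups.

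Kif3a, a subunit of the kinesin-2 motor that builds cilia, rose in footpad from 6.64 and 6.68 to 7.67 and 7.76 (1.05 ± 0.13, adjusted p = 2.21e-05). It read 7.63 and 7.27 against 7.07 and 7.09 in oral mucosa, 7.45 and 7.53 against 7.18 and 7.39 in vagina, 7.50 and 7.09 against 6.98 and 6.93 in esophagus and 7.51 and 7.42 against 7.53 and 7.58 in trachea, so its 2 lowest arrays were those of footpad before transplantation. Kif3b, which pairs with Kif3a in that motor, differed by -0.20 ± 0.12 in footpad and did not pass. Kif5b, the widespread heavy chain of conventional kinesin, differed by -0.64 ± 0.09 in footpad and 0.39 ± 0.09 in oral mucosa, and its response differed by 1.02 ± 0.13 between oral mucosa and footpad. Kif3c lay lower after transplantation in oral mucosa (-0.80 ± 0.15) and vagina (-0.84 ± 0.15).

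Nek6 had the largest fall of any member. This NIMA-related kinase works downstream of Nek9 at the spindle but is counted here outside the mitotic roles. It stood at 7.81 and 7.99 before and 6.01 and 6.13 after in footpad, so that it fell by 1.83 ± 0.11 (adjusted p = 2.60e-08) or 3.56-fold. It read 7.65 and 7.30 against 7.79 and 7.84 in oral mucosa, 8.36 and 8.28 against 7.70 and 7.70 in vagina, 7.86 and 7.83 against 7.71 and 7.85 in esophagus and 8.44 and 8.57 against 7.63 and 7.46 in trachea. Both footpad arrays after transplantation lay below every other array, and trachea (-0.96 ± 0.11) and vagina (-0.62 ± 0.11) were lower after transplantation by less than 2-fold. Nek9 itself, which activates Nek6 and Nek7 in mitosis, differed by -0.12 ± 0.09 in footpad, and none of the other 6 NIMA-related kinases passed in any tissue.

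Plk2 and Plk3, polo-like kinases induced by stress, went against the mitotic genes in oral mucosa. Plk3 read 9.77 and 9.62 before and 8.86 and 9.07 after there, a change of -0.73 ± 0.09. The decrease was not particular to oral mucosa. By the adjusted p alone Plk3 was also lower in esophagus, from 8.73 and 8.76 to 7.87 and 7.96. In footpad it was higher, from 9.14 and 9.23 to 9.73 and 9.81. Plk2, a target of p53, stood at 11.92 and 11.89 before and 11.15 and 11.24 after in oral mucosa (-0.71 ± 0.07, adjusted p = 3.48e-06), the other 18 arrays lying between 11.70 and 12.13. Both changes in oral mucosa were below 2-fold. Ccnb1ip1, a ubiquitin ligase known for its part in meiotic crossing over in mouse, rose in vagina from 5.61 and 5.87 to 7.17 and 7.32 (1.5 ± 0.19, adjusted p = 8.14e-05). It read 5.88 and 5.37 against 5.45 and 5.22 in oral mucosa, 6.57 and 6.05 against 6.93 and 7.08 in esophagus, 5.26 and 5.67 against 6.22 and 6.16 in footpad and 5.34 and 5.43 against 5.57 and 5.51 in trachea.

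**Figure D5:**
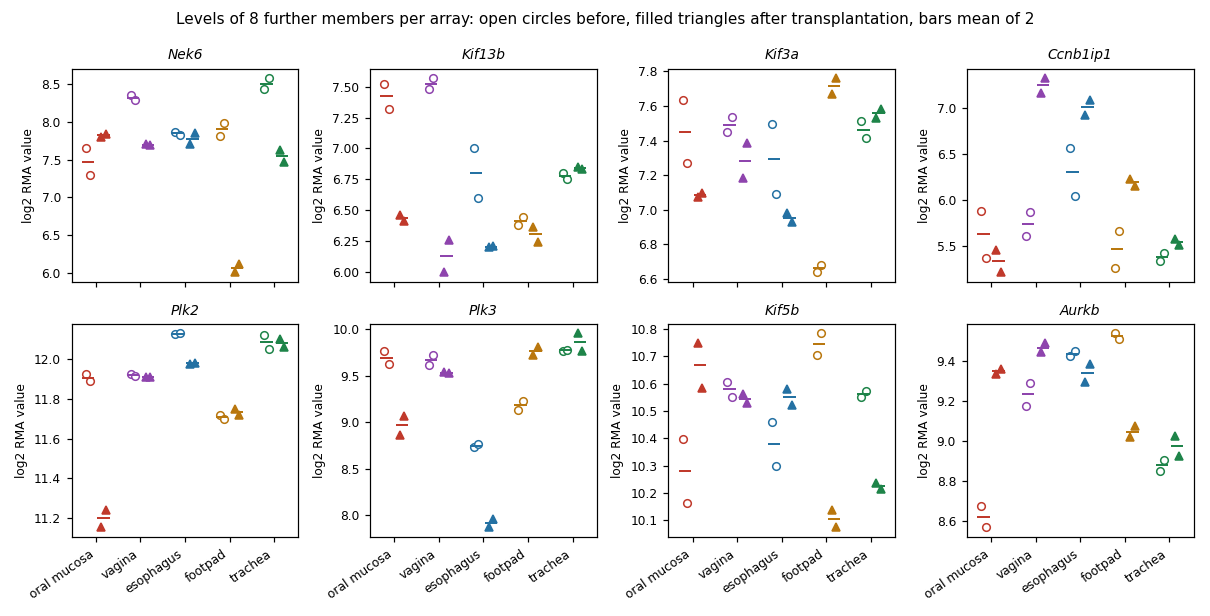
Log2 RMA value of 8 further members on each array by tissue; open circles are before and filled triangles after transplantation, and bars are the mean of 2 arrays. Nek6 in footpad after transplantation, near 6.07, lies below all other groups, and Aurkb alone among the 8 belongs to the mitotic roles.

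Across the 10 group means the mitotic members ran with Top2a, which is a description over groups that share arrays with the tests above. Oral mucosa before transplantation had the lowest mean in all 37 mitotic genes. Each r thus rests in part on the arrays that also give the rise there, and r without them was not computed. Pearson's r with Top2a was 0.83 to 0.98 for the 9 mitotic kinesins, with a median of 0.96, and the medians were 0.94 for mitotic kinases, 0.92 for cyclins and partners and 0.88 for centromere genes. For the 20 kinesins of transport and cilia r ran from -0.67 to 0.48 with a median of 0.11, and for Plk2 and Plk3 it was -0.40 and -0.45.

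Mitosis genes with other names moved likewise. Of 43 measured of 67 listed, 25 rose in oral mucosa and none fell, against 1.91% and 3.07% of all symbols, with a median change of 1.2. Among them were Foxm1 (1.69), the transcription factor of G2 and M, Mybl2 (1.04), which encodes B-Myb, Fbxo5 (2.38), an inhibitor of the anaphase-promoting complex, Pbk (1.80) and Prc1 (1.73). In footpad 3 rose and 1 fell, against 5.25% and 4.02% of all symbols. Oip5 (1.31), which loads Cenpa, Nusap1 (1.14) and Cdc25b (1.04) rose, and Mybl2 fell by 1.80. By the adjusted p alone, 7 of the 43 were higher and 18 lower in footpad, against 16.6% and 14.9% of all probe sets. In vagina Fbxo5 (1.10) and Ska1 (1.00) rose, against 0.62% of all symbols, and none passed in esophagus or trachea. Without the fold limit 30 were higher and none lower in vagina, against 9.17% and 10.7% of all probe sets. In esophagus 21 were higher and 3 lower, against 6.7% and 6.57%, and in trachea 1 and 28, against 6.25% and 8.84%.

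The replication genes act in S phase before the mitotic ones, and more of them passed in footpad. In footpad 12 of 26 measured genes fell and none rose, against 4.02% and 5.25% of all symbols, with a median of -0.64. Ccne1 (-3.16), Tyms (-2.13) and Cdc6 (-2.12) fell most, whereas none of the 37 mitotic members passed there. By the adjusted p alone 19 replication genes were lower and 2 higher in footpad. Of the mitotic members 10 were lower and 8 higher, against 14.9% and 16.6% of all probe sets. Whether the lists differ there was not tested. In oral mucosa 21 rose and in trachea 7 fell, against 1.91% and 0.972% of all symbols, with medians of 1.3 and -0.64. In esophagus 5 and in vagina 1 rose, against 0.572% and 0.62%. By the adjusted p alone 22 were higher and none lower in vagina, against 9.17% and 10.7% of all probe sets. In esophagus 21 were higher and none lower, against 6.7% and 6.57%. In trachea none were higher and 19 lower, against 6.25% and 8.84%.

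Of 9 measured inhibitors of the cell cycle and p53 targets, 3 fell and 1 rose in oral mucosa, against 3.07% and 1.91% of all symbols. Cdkn1a (-1.16), Mdm2 (-1.62), the ligase that degrades p53, and Ccng1 (-1.04) fell, and Cdkn2c (1.75), an inhibitor of Cdk4 and Cdk6, rose. Gadd45a (-0.17), Cdkn1b (-0.09), Cdkn1c (0.08), Cdkn2a (0.02) and Cdkn2b (0.07) did not pass there. In footpad Cdkn2a (-1.89), Cdkn2b (-2.09) and Cdkn1c (-1.53) fell while Cdkn1b (1.63), Gadd45a (1.45) and Cdkn2c (1.13) rose, against 4.02% and 5.25% of all symbols. Cdkn2c (1.03) rose in vagina, against 0.62% of all symbols, and no gene of this list passed in esophagus or trachea.

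Genes of other cell states moved with the same samples. Of 9 measured markers of differentiated squamous cells, 6 fell in oral mucosa and none rose, against 3.07% and 1.91% of all symbols. The mean of the list was 8.69 to 8.70 on the arrays before and 6.37 to 6.39 after, with Krt4 at -6.63 and Krt13 at -3.69. Ivl and Krt1 lay at or near 4.77 or below it at both stages. In vagina 3 and in esophagus 4 of these markers fell, against 2.41% and 0.765% of all symbols. In trachea 2 rose, against 0.627%, and in footpad 3 rose and 1 fell, against 5.25% and 4.02%. Of 8 fibroblast markers 5 fell in trachea, against 0.972% of all symbols, 5 in vagina, against 2.41%, and 8 in footpad, against 4.02%. Their mean in trachea was 6.64 to 6.78 before and 5.18 to 5.23 after. In oral mucosa 1 rose (Twist1, 1.37), against 1.91%, and their mean was 5.17 to 5.35 before and 5.52 to 5.53 after. Of 7 measured markers of basal epithelial cells none passed with a 2-fold change in any tissue. In oral mucosa the adhesion gene Cdh1 changed by -0.995 (limma adjusted p = 4.52e-07), Tp63, a transcription factor of basal cells, by 0.77 (adjusted p = 1.37e-05) and Col17a1, a collagen of hemidesmosomes, by 0.42. Such changes were not particular to oral mucosa. By the adjusted p alone Itgb4 (-0.75), Cdh1 (0.73), Itga6 (-0.58) and Col17a1 (-0.54) also differed in footpad. So did Cdh1 in esophagus (-0.73) and trachea (-0.49) and Itgb4 in vagina (-0.53), among others. None passed among 4 endothelial, 2 melanocyte and 4 muscle markers. Of 4 immune markers Cd68, a protein of lysosomes, fell by 1.96 in oral mucosa and by 1.07 in vagina. In these tissues 3.07% and 2.41% of all symbols fell. The part of these lists in the mitotic changes was not tested.

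The duplicates correlated at r = 0.991 to 0.996 over all probe sets, and array medians lay between 5.31 and 5.55. Groups of 2 arrays limit the precision.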

How the data were processed

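RNA of sorted EGFP-positive cells (100 ng per array) was hybridized to 20 Affymetrix Rat Gene ST 1.0 arrays, in 10 groups of 2. The deposited values are log2 signals per probe set that the authors made with RMA in Affymetrix Expression Console, which corrects background, brings all arrays to the same distribution and summarizes probes. Quantile normalization hides a change of total RNA per cell. Tool versions were not given in the sources used here, and arrays have no read depth. Of 29215 probe sets 15310 have 1 symbol, 323 several and 13582 are unnamed here; all 70 members were found in RefSeq by gene ID.

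All 10 groups were fitted together with limma 3.58.1 in R 4.3.3 (10 residual degrees of freedom, empirical Bayes prior 3.64), with Benjamini-Hochberg adjustment of p-values over all probe sets within each contrast. Contrasts were after minus before in each tissue, each response and each level against the mean of the other 4 tissues, oral mucosa against footpad, and moderated F tests over the 5 tissues, which also had to show a difference of more than 2-fold between a pair of tissues. No filter on low values was applied. The fit was tested on simulated data.

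Every array value is given for the measured genes among a list of 21 markers of proliferation and checkpoint and, in each tissue, for the 5 members past the threshold with the largest change and no overlap of stages. The level contrasts against the other 4 tissues were added after seeing the data. The members, the lists and the contrast of oral mucosa against footpad were chosen with earlier results of these data known. Alternatives were median centring, renewed quantile normalization, an intensity trend, a filter on dim probe sets, fits of each tissue alone, the mean of all probe sets of a symbol, the replicate number as a block, no fold limit, and leaving out each array.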

Additional observations from a re-analysis of the deposited data

Results flagged for a closer look

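The response to transplantation differed between tissues, by limma's moderated F test, in each of 23 members for which every array value is given, against 24% of all symbols. Of these, Plk4, Ccnb1ip1, Kif13b, Nek6 and Kif3a were included only because they had changed past the threshold in a tissue. Their passing was thus partly fixed by that choice, and the markers were listed with earlier results known. The values below are the largest difference of response between any pair of tissues, on the log2 scale. Among Top2a and the cyclins with their partners it was 2.81 for Top2a, 2.18 for Ccna2, 2.02 for Cdk1, 1.94 for Ccnb1, 1.73 for Cdc20 and 1.14 for Ccnb2. Among kinases it was 2.48 for Plk1, 2.47 for Bub1b, 2.43 for Plk4, 2.06 for Aurka, 1.99 for Bub1 and 1.2 for Aurkb. The attachment genes stood at 2.20 for Ndc80 and 2.02 for Nuf2, and the centromere histone Cenpa at 1.85. Mitotic kinesins stood at 2.56 for Kif11, 2.46 for Kif20a, 2.42 for Kif2c and 1.16 for Kif23. Outside the mitotic roles it was 2.18 for Nek6, 1.79 for Ccnb1ip1, 1.46 for Kif13b and 1.42 for Kif3a. Of the 40 members past this test, 28 had their highest response in oral mucosa and their lowest in trachea, and 5 had their lowest in footpad with the highest in oral mucosa. Groups of 2 arrays are too small to test for single arrays that stand apart.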

How the results depend on the processing

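Of 33 single changes past the threshold none reversed in 924 refits, and 920 stayed past it. Cenpi in oral mucosa did not with median centring (0.92), without the second array after (0.99) or without the second array before transplantation (0.88), and Cdc20 did not in the last case (0.94). Many of the 924 refits could hardly fail. Leaving out an array of another tissue, or a block on the replicate number, keeps the estimate, and lifting the fold limit only loosens the call. The mean of all probe sets can alter only Ccnb2 and Nek2. All 4 losses came from settings that can move an estimate. Median centring moved the median over all probe sets of the oral mucosa change from 0.05 to -0.09, and brought 1 member lower there, 1 lower and 2 higher in the responses of vagina and of footpad against the other 4 tissues, and 5 lower in oral mucosa against footpad. Renewed quantile normalization gave 2 higher in vagina and 5 lower in the footpad response. Without the fold limit the counts after against before were 7 lower in oral mucosa, 23 higher and 7 lower in vagina, 16 and 8 in esophagus, 13 and 14 in footpad, and 27 lower in trachea. For responses against the other 4 tissues they were 6 lower in oral mucosa, 2 lower in vagina, 4 higher and 3 lower in esophagus, 12 higher and 26 lower in footpad and 2 higher in trachea, and 8 were lower in oral mucosa against footpad. The trachea level after transplantation was then lower in 40 members, and the F tests of levels passed in 56 before and 56 after. Shares over all probe sets without the fold limit were computed only for after against before. The counts for responses, levels and F tests therefore show only how they depend on the limit.

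Leaving out 1 array at a time, members higher ran from 27 to 29 in oral mucosa, 1 to 2 in vagina, 0 to 2 in esophagus and 1 to 2 in footpad, and members lower from 0 to 1 in oral mucosa and 0 to 1 in trachea. For responses against the other 4 tissues they ran from 0 to 1 lower in oral mucosa, 0 to 1 lower in vagina, 1 to 2 higher and 2 to 5 lower in footpad, and 21 to 27 lower in trachea. The upper end was reached without the first array before transplantation in vagina and esophagus, the second before in footpad, the second before or the first after in oral mucosa, and the first before or the first after in trachea. In the footpad response 4 were lower without the first oral mucosa array before and 5 without the first footpad array before, and Ccnb1ip1 no longer fell short in the oral mucosa response without the first before or second after array of oral mucosa or the second before of esophagus. With the replicate number as a block all 33 changes stayed past the threshold, 29 members higher in oral mucosa among them. The labels do not say whether equal numbers mark paired cultures. Deviations of equally numbered arrays before and after correlated at -0.15 to 0.03 over all probe sets, so no shared deviation was seen. Quantile-normalized values of 2 cultures per group limit what can be seen: changes below 2-fold were counted apart, and levels near background understate a change.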
